A study of Mus musculus with 8 samples.

Results

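Regulators and effectors of the epithelial-mesenchymal transition were examined in carcinomas of the gastric squamous-columnar junction (SCJ) of mice. The 10 genes were chosen by symbol from the 23361 genes of the expression table. They were the transcription factors Snai1, Snai2, Twist1, Twist2, Zeb1 and Zeb2, and the effectors Vim, Fn1, Cdh2 and S100a4. All 10 were found.

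Poly(A)+ RNA was sequenced from 5 SCJ cancers of Trp53-/-Rb1-/- genotype and from the SCJ of 3 wild type stomachs. The cancers arose in mice with an Lgr5-eGFP-Ires-CreERT2 allele, loxP alleles of Trp53 and Rb1, and the Ai9 tdTomato reporter. Tamoxifen activated the Cre in Lgr5+ cells, and the tumor borders were set by tdTomato. The tumors were dissected many months after tamoxifen, and the controls came from age-paired mice. The sample labels give no age. Both groups were whole tissue pieces, so stromal, vascular and immune cells were part of every library. Genotype and tumor differed together between the groups and cannot be told apart in the comparison. The paper's methods give tamoxifen to control mice of the tumor induction experiments. Whether the wild type mice sequenced here were among them is not given in the sources used here.

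In an epithelial-mesenchymal transition, cells joined by E-cadherin loosen these junctions, change their cytoskeleton and become motile. SNAIL, ZEB and TWIST proteins bind E-box sequences, and the SNAIL and ZEB proteins repress epithelial genes such as Cdh1, the gene of E-cadherin. Vimentin, fibronectin and N-cadherin are commonly read as products of the mesenchymal state, and they are also normal products of fibroblasts and other cells of the stroma.

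Expression was given as FPKM (read fragments counted per transcript length and per library), rounded by the authors to whole numbers, and read depth is unknown. The FPKM sum of a library was 403569 to 573858 in the cancers and 887141 to 992550 in the controls. Gastric gland genes summed to FPKM of 158537 to 240752 and squamous genes to 2161 to 3584 in the controls, so that both epithelia of the junction were present. Rb1 was at FPKM of 4 to 6 in the cancers and 9 to 10 in the controls, and Trp53 at 12 to 30 and 16 to 19. Deleted exons are not seen apart in a whole-gene value, and neither gene therefore checked the genotype. With each library rescaled to a common FPKM sum, Rb1 differed by -0.05 on the log2 scale, where the median of all genes tested was 0.81. Relative to that median Rb1 was at -0.86, and without the rescaling its log2 difference was -0.90.

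Of the 10 genes, 5 were higher in the cancers and 0 were lower. Snai1, Zeb1, Vim, Fn1 and Cdh2 had an adjusted p under 0.05 in limma, a linear model fitted on log2(FPKM + 1) of the 14357 genes that reached FPKM 1 in 3 or more libraries. Among all genes tested, 16.2% were higher in the cancers and 18.3% were lower by the same rule. Twist2 did not reach the minimum level, so 9 of the 10 were tested. Cdh2 and Twist1, listed at 0 in all controls, reached it through the cancers alone, so they could not have come out lower. At an unadjusted p under 0.05, 6 were higher and 0 lower, beside 22.6% and 25.3% of all genes tested. In 4 of the 10, Snai1, Zeb1, Fn1 and Cdh2, every cancer lay above every control, which was so for 14.4% of all genes tested, while 19.8% had every cancer below every control. The median log2 fold change of the 9 was 1.08, beside -0.04 for all genes tested. In whole tissue, fewer cells of a type and less RNA per cell cannot be told apart. The labels do not say that each library came from another animal, so the p-values measure the spread between these libraries.

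**Figure D1:**
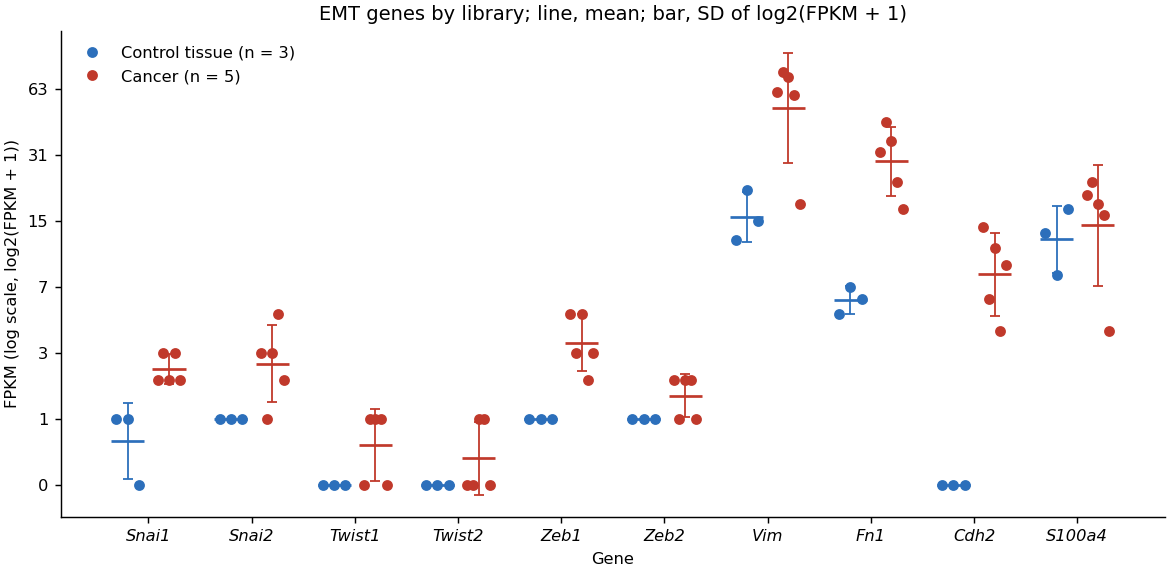
FPKM of the 10 genes on a log axis, with a point for each of the 5 cancers and 3 controls, a line at the mean and a bar for the SD of log2(FPKM + 1). The 6 transcription factors lie at FPKM of 5 or less in every library, Vim reaches 75, and Cdh2 is at 0 in all 3 controls and at 4 to 14 in the cancers.

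In the cancers the order of mean FPKM, a level per transcript length, ran from Vim (56.8) through Fn1 (30.4), S100a4 (16.2), Cdh2 (8.8), Zeb1 (3.6), Snai2 (2.8), Snai1 (2.4), Zeb2 (1.6) and Twist1 (0.6) to Twist2 (0.4). The ranges of all neighbours in this order overlapped between libraries. Within the same cancer, Vim exceeded Fn1, Fn1 exceeded S100a4 and Cdh2 exceeded Zeb1 in 5 of 5 libraries, whereas Snai2 exceeded Snai1 in 3 of 5.

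Snai1 encodes a zinc finger repressor that acts early in many transitions. Its promoter is shown because it holds the sequence that SNAIL and ZEB proteins bind. The window is chr2:167537945-167538244 (GRCm38.p6, plus strand), from 250 bases before to 50 bases after the RefSeq start, with the E-box in capitals.
Snai1: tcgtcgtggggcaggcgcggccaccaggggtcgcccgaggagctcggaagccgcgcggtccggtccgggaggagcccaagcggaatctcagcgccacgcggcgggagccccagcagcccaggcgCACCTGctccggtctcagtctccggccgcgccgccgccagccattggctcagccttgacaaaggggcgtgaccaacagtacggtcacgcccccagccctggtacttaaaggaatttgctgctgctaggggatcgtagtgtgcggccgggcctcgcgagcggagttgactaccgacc
The search covered CAGGTG and its reverse complement CACCTG. The match was CACCTG, with its first base 126 bases before the start. A window was found for 6 of the genes, and Snai1 was the 1 of them with this E-box, which 20.2% of all 32851 promoter windows held. The match describes the letters only, and binding was not measured.

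Snai1 (chromosome 2, 167538227 to 167542811, mm10) showed FPKM of 2, 3, 2, 3 and 2 in cancers 1 to 5. The controls were at 1, 1 and 0. All cancers lay above all controls. The log2 fold change came to 1.08 ± 0.27 (SE; limma, adjusted p = 0.0192). The exact permutation test gave p = 0.0179, the smallest value that 5 against 3 libraries allow (two-sided). Rounding alone leaves the log2 fold change anywhere between 0.44 and 1.56. Among the settings that ended the call were a pseudocount of 0.1 (limma, adjusted p = 0.0567), a pseudocount of 0.01 (0.113) and quantile normalization (0.093).

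Snai2 (chromosome 16, 14705859 to 14709382), which encodes Slug, the close relative of Snai1, had FPKM of 3, 1, 3, 5 and 2 in the cancers. It was at 1 in each control. Cancer 2 was at the control level and the groups overlapped. The log2 fold change came to 0.83 ± 0.33 (SE; limma, adjusted p = 0.0801). Without cancer 2 it was called (limma, adjusted p = 0.017).

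The difference between Snai2 and Snai1 within a library averaged 0.083 ± 0.64 (SD, n = 5) on the log2 scale in the cancers and 0.33 ± 0.58 (SD, n = 3) in the controls. The groups overlapped (two-sided exact permutation test, p = 0.732).

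Twist1 and Twist2, basic helix-loop-helix factors of mesoderm, were close to the limit of the rounded values. Twist1 (chromosome 12, 33957671 to 33959831) was at 0, 1, 1, 1 and 0 in the cancers. Twist2 (chromosome 1, 91801477 to 91848027) was at 0, 0, 1, 1 and 0. Both were listed at 0 in all 3 controls, so no fold change is given. Twist1 did not pass (limma, adjusted p = 0.156), and the exact permutation test of Twist2 gave p = 0.464. Cancers 3 and 4 were the libraries with both genes above 0.

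Zeb1 (chromosome 18, 5491501 to 5775468), a zinc finger homeobox repressor, had FPKM of 5, 3, 5, 2 and 3 in the cancers. It was at 1 in each control. All cancers lay above all controls. The log2 fold change came to 1.15 ± 0.25 (SE; limma, adjusted p = 0.0126; exact permutation test, p = 0.0179). Rounding alone leaves it between 0.65 and 1.72, and with quantile normalization the adjusted p was 0.0593.

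Zeb2 (chromosome 2, 44983634 to 45114084), the relative of Zeb1, was at 2, 1, 2, 2 and 1 in the cancers. It was also at 1 in each control. The groups overlapped, and the log2 fold change came to 0.35 ± 0.20 (SE; limma, adjusted p = 0.195). Rounding leaves even its sign undecided (-0.29 to 1.03). In RefSeq the lncRNA genes Zeb2os, Gm10125 and Gm46117 overlap Zeb2, Zeb1 and Twist2, in that order. Whether reads were counted by strand is not given in the sources used here.

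Zeb2 minus Zeb1 within a library was -1 in cancers 1, 2, 3 and 5 and 0 in cancer 4 and in every control, on the log2(FPKM + 1) scale. The mean difference between the groups was -0.80 (two-sided exact permutation test, p = 0.143, and 0.286 adjusted over 4 such differences).

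**Figure D2:**
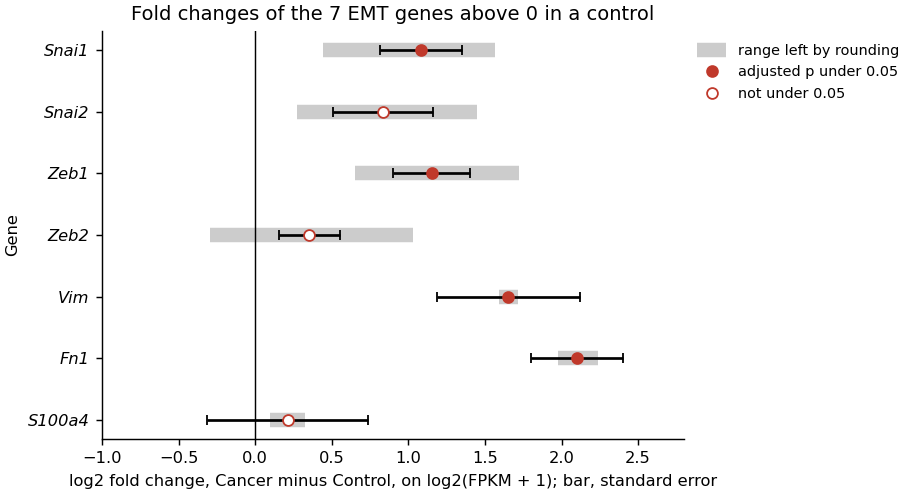
Log2 fold change of cancers against controls, on log2(FPKM + 1), for the 7 tested genes with a value above 0 in a control. Points are limma estimates, black bars their standard errors, grey bars the range that rounding to whole FPKM leaves, and filled points had an adjusted p under 0.05. For Snai1, Snai2, Zeb1 and Zeb2 the rounding range is wider than the standard error, and for Vim and S100a4 it is narrower.

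In the cancers the mean FPKM of each of the 4 effectors was above that of every factor. The promoter of Vim is shown for the effector with the highest level, with a TATA box in capitals. The window is chr2:13574061-13574360 (GRCm38.p6, plus strand), again from 250 bases before the RefSeq start.
Vim: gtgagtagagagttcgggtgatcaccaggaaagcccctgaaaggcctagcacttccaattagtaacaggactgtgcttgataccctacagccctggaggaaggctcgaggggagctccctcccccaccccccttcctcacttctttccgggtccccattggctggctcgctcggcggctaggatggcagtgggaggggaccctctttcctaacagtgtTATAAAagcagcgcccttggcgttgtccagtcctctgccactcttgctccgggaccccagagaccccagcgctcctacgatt
TATAAA began 32 bases before the start. This motif and its reverse complement TTTATA occur in 13.6% of all windows. S100a4 had TATAAA 31 bases before its start. The E-box CAGGTG or CACCTG was not found in either window, nor was the GC box GGGCGG or CCGCCC, which 35.7% of all windows held.

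Vim (chromosome 2, 13574311 to 13582826) encodes vimentin, the intermediate filament protein of mesenchymal cells. Its FPKM was 61, 75, 71, 59 and 18 in cancers 1 to 5. The controls were at 12, 21 and 15. Cancers 1 to 4 lay above all controls, and cancer 5 lay below control 2. The mean was 56.8 ± 22.7 (SD, n = 5) against 16 ± 4.58 (SD, n = 3), and the log2 fold change came to 1.65 ± 0.47 (SE; limma, adjusted p = 0.0299). The exact permutation test gave p = 0.0536. The call depended on the set of libraries. Without cancer 1, 2, 3 or 4 the adjusted p from limma was 0.0619, 0.0549, 0.0711 or 0.0552, and without control 1, 2 or 3 it was 0.113, 0.0602 or 0.0929. Without cancer 5 it was 0.00197, with a log2 fold change of 2.02.

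Fn1 (chromosome 1, 71585473 to 71653234) encodes fibronectin, a glycoprotein of the extracellular matrix. The cancers had FPKM of 32, 44, 36, 23 and 17. The controls were at 5, 7 and 6. Every cancer was above every control, cancer 5 being again the lowest. The mean was 30.4 ± 10.6 (SD, n = 5) against 6.0 ± 1.0 (SD, n = 3), a ratio of means of 5.07. The log2 fold change came to 2.10 ± 0.30 (SE; limma, adjusted p = 0.00303; exact permutation test, p = 0.0179). The adjusted p from limma stayed between 0.00207 and 0.0186 when a library was left out.

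S100a4 (chromosome 3, 90603770 to 90606045) encodes a calcium-binding protein also called fibroblast-specific protein, which some leukocytes make too. Its FPKM was 20, 23, 18, 16 and 4 in the cancers. The controls were at 13, 8 and 17. The groups overlapped, since cancer 5 was the lowest of all 8 libraries and cancer 4 lay below control 3. The log2 fold change came to 0.21 ± 0.52 (SE; limma, adjusted p = 0.773). Without cancer 5 it was 0.61 (limma, adjusted p = 0.107), and without control 2 it was -0.06.

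Cdh2 (chromosome 18, 16588877 to 16809049) encodes N-cadherin, the cadherin of neural and many mesenchymal cells. It had FPKM of 14, 6, 11, 4 and 9 in the cancers. All 3 controls were listed at 0, so no fold change is given. Cdh2 thus entered the test through the cancers alone, where it could only be equal or higher. The adjusted p from limma was 0.00125 and that of the exact permutation test, unadjusted, was 0.0179. The call held in every alternative tried and without any 1 library (adjusted p of 0.00091 to 0.0101 from limma).

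Cdh1 (chromosome 8, 106603368 to 106670246) had cancer FPKM of 52, 173, 70, 112 and 121. The controls were at 390, 304 and 318. Every cancer was below every control (-1.78 ± 0.38 on the log2 scale, SE; limma, adjusted p = 0.0117). Leaving out control 1 was among the settings that ended the call, with a log2 value of -1.67 (limma, adjusted p = 0.0517). E-cadherin RNA exceeded N-cadherin RNA in all 8 libraries. Cdh2 minus Cdh1 within a library was -1.82, -4.64, -2.56, -4.50 and -3.61 on the log2(FPKM + 1) scale in cancers 1 to 5. In the controls it was -8.61, -8.25 and -8.32. The groups did not overlap, and the difference of 4.97 depends on the pseudocount because of the zeros in Cdh2. Its p was 0.0179 by the two-sided exact permutation test and 0.0714 adjusted over the 4 within-library differences, of which 0 passed after adjustment and 1 before. A lone p of 0.0179, the smallest possible here, cannot pass this adjustment, so the failure does not show equal levels. Cancer 1 had the highest Cdh2 and the lowest Cdh1, but cancer 4 had the lowest Cdh2 with a Cdh1 in the middle of the range.

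**Figure D3:**
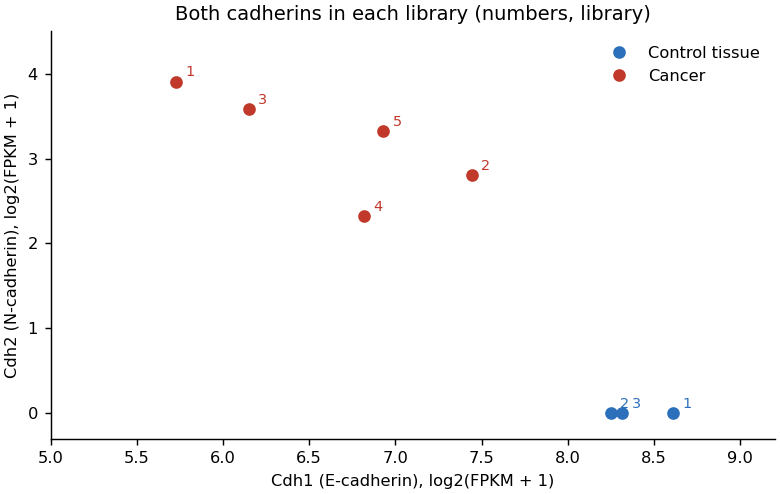
Cdh2 (N-cadherin) against Cdh1 (E-cadherin) in each library, both as log2(FPKM + 1), with the library number beside each point. The 3 controls sit at 0 for Cdh2 and right of every cancer for Cdh1, and the 5 cancers spread over both axes.

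Markers of other cell types were measured in the same libraries, and their counts stand beside the shares of all genes tested (16.2% higher and 18.3% lower after adjustment, 22.6% and 25.3% unadjusted). Of 12 fibroblast genes, 2 were higher (Pdgfrb and Thy1), near the share of all genes, and 0 lower, with 4 higher and 0 lower at an unadjusted p under 0.05. Their summed FPKM was 290, 401, 388, 292 and 76 in cancers 1 to 5, whereas control sums were 91 to 185. By this sum cancer 5 was thus below every control, and it was the lowest cancer for Vim, Fn1 and S100a4. The 2 genes called went the other way in cancer 5, with Pdgfrb at 2 against 1 in each control and Thy1 at 4 against 2, 3 and 3. Fap, a gene of activated fibroblasts, was at 0 in all controls. Of 10 endothelial genes, 7 were higher and 0 lower (8 and 0 at an unadjusted p under 0.05). Their sums were 30 to 96 in the cancers, with cancer 5 again the lowest, and 13 to 22 in the controls. None of these genes was at 0 in all controls. Of 11 macrophage and neutrophil genes, 4 were higher and 0 lower (7 and 0 unadjusted), with sums of 198 to 941 against 161 to 404 and 1 gene at 0 in all controls. S100a8 (549) and S100a9 (274) made most of the sum of 941, in cancer 4. By the mean log2(FPKM + 1) of the 11 genes, all 5 cancers lay above all controls. Of 8 smooth muscle genes, 0 were called in either direction, also at an unadjusted p under 0.05, and the sums were 44 to 1710 in the cancers and 361 to 554 in the controls. Of 5 lymphocyte genes tested 0 were called (1 higher and 0 lower unadjusted), of 3 genes of enteric glia 1 was higher, and of 2 mesothelial genes 1 was lower. Gastric gland genes had a median log2 fold change of -4.50, with 0 of 10 called higher and 1 called lower (0 and 6 at an unadjusted p under 0.05), and 7 had every cancer below every control, as had 19.8% of all genes tested. Their sums were 694, 78716, 6015, 55566 and 16662 in cancers 1 to 5, far from uniform. Squamous genes had a median of -2.55, with 0 of 8 called higher and 1 called lower (0 and 3 unadjusted), and their sums were 0 to 1930 in the cancers, the 0 being cancer 1. The part of these cells in the values of the 10 genes was not tested, other than by the level relative to fibroblast genes that follows.

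Each gene was set against the mean log2(FPKM + 1) of the 12 fibroblast genes in the same library. Vim minus this mean was 2.02, 1.97, 1.91, 1.96 and 1.96 in cancers 1 to 5. The controls were at 0.68, 1.17 and 1.5. The cancers were thus nearly alike, at 1.96 ± 0.038 (SD, n = 5), although their Vim FPKM ran from 18 to 75, and cancer 5 no longer stood apart. The 0.85 by which they exceeded the controls gave p = 0.0179 in the two-sided exact permutation test and 0.0893 adjusted over the 10 tests of this kind, a family chosen with results known. The level of Vim relative to endothelial or other stromal genes was not tested.

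Fn1 minus the fibroblast mean was 1.11, 1.21, 0.95, 0.63 and 1.88 in the cancers, against -0.43, -0.29 and 0.30 in control tissue. Here cancer 5 was the highest cancer, whereas by FPKM it was the lowest cancer. The difference between the groups was 1.30 (exact permutation test, p = 0.0179, adjusted p = 0.0893).

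Cdh2 minus the fibroblast mean was -0.03, -1.47, -0.67, -1.63 and 1.03 in the cancers. It was -3.02, -3.29 and -2.50 in the controls. Since Cdh2 is listed at 0 in all controls, the control values are the fibroblast mean with its sign turned, and the high value of cancer 5 goes with its low fibroblast mean, its Cdh2 FPKM of 9 being the median of the cancers. The exact permutation test of the difference gave p = 0.0357 (adjusted p = 0.119).

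For the other 7 genes the groups overlapped on this measure. The differences were 0.35 for Zeb1, 0.28 for Snai1, 0.03 for Snai2, -0.45 for Zeb2 and -0.59 for S100a4. With 1 library left out they ran from 0.021 to 0.56 for Zeb1, -0.73 to -0.23 for Zeb2 and -1.04 to -0.15 for S100a4, and those of Snai1 and Snai2 took both signs. Those of Twist1 and Twist2 are not read, since in the libraries where these genes are listed at 0 the value is the fibroblast mean alone, and their sign turned with a smaller pseudocount. After adjustment 0 of the 10 passed, and 3 passed the unadjusted exact permutation test. With 5 against 3 libraries and 10 genes, the smallest p of 0.0179 passes after adjustment only if it is shared by at least 4 genes, so the failed adjustment does not show equal levels.

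**Figure D4:**
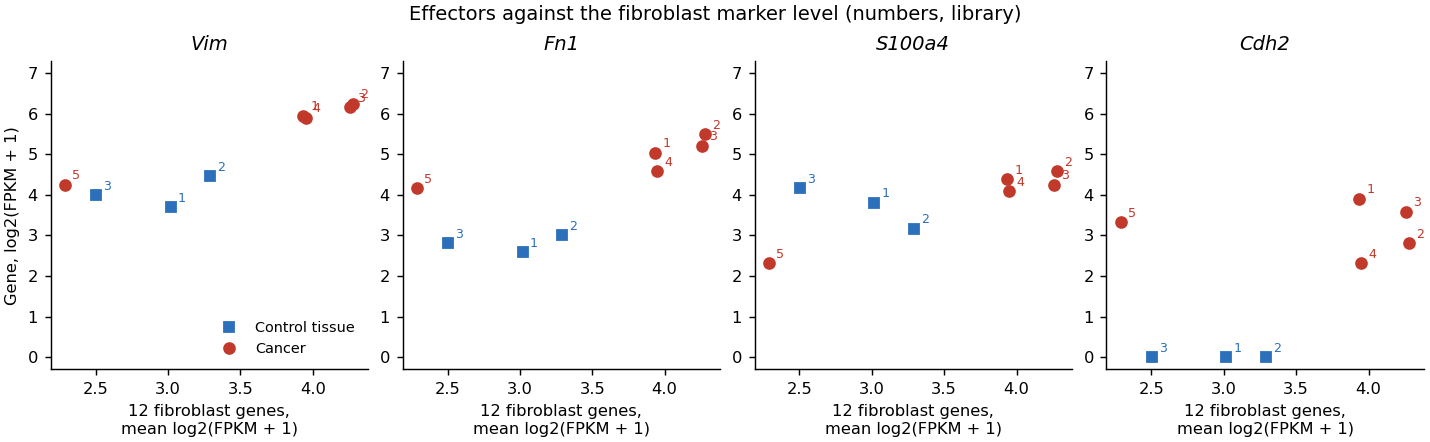
Log2(FPKM + 1) of Vim, Fn1, S100a4 and Cdh2 in each library against the mean log2(FPKM + 1) of 12 fibroblast genes, with library numbers beside the points. Vim in the 5 cancers lies 1.91 to 2.02 above the fibroblast mean across its whole range, and cancer 5 is at the low end of that mean but in the middle of the cancers for Cdh2.

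Cancer 5 also differed in genes of the liver. The 8 hepatocyte genes summed to FPKM of 971 in cancer 5, against 20 to 66 in the remaining cancers and 3 to 6 in control tissue, with 5 of the 8 at 0 in all controls. Hepatocytes make fibronectin and N-cadherin as well, and their part in Fn1 and Cdh2 was not tested. Without cancer 5 the log2 fold change of Fn1 was 2.29 and both Fn1 and Cdh2 were still called (adjusted p = 0.00207 and 0.00376 from limma). All 10 neuroendocrine genes were higher, and their sums of 8224 to 18480 in the cancers stood against 127 to 192 in the controls. Neurod1, a transcription factor of neuroendocrine cells, was at 0 in all controls, as was Cdh2. Whether Cdh2 came from such cells was not tested.

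The genes whose pattern over the 8 libraries lay nearest to Vim were Emcn, Sparc and Eng, of 9125 genes with a mean FPKM of at least 5. Their root mean square differences, on centred log2(FPKM + 1), were 0.24, 0.26 and 0.26. Emcn and Eng are endothelial surface proteins and Sparc is a matrix protein. Sparc, for example, had cancer FPKM of 138, 133, 160, 121 and 26, against 30, 36 and 24 in control tissue. It has the low value of cancer 5 in common with Vim. Nearest to Fn1 were Speg (0.24), Serpinf1 (0.26) and Bmp1 (0.26), and nearest to S100a4 were Siva1 (0.33), Egfl7 (0.36) and Rrm2 (0.37). The 8 libraries share their processing and the difference between the groups, so these distances are descriptions.

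The rest of the pathway was read from 6 further lists, whose counts stand beside 16.2% higher and 18.3% lower among all genes tested. With values rescaled to a common sum (TPM), 50.0% of all genes were higher and 3.68% lower, and splits with TPM stand beside these shares. Of 11 other transcription factors tested, 2 were higher and 1 lower (4 and 1 at an unadjusted p under 0.05), with a median log2 fold change of 0.14. Foxc1, a forkhead factor of mesenchyme, had cancer FPKM of 17, 6, 15, 5 and 5, against 1 in each control (2.23 ± 0.43 on the log2 scale, SE; limma, adjusted p = 0.00796). Tcf3, which encodes the E12 and E47 proteins, was at 13 to 19 against 9 to 11 (0.63 on the log2 scale; limma, adjusted p = 0.0221), and lost its call without cancer 3, control 1 or control 2 (0.0502, 0.079 and 0.0815). The lower one was Snai3, a further SNAIL family gene, at 0, 0, 0, 1 and 0 against 1 in each control (limma, adjusted p = 0.0451), with overlap of the groups (exact permutation test, p = 0.143) and a sign that rounding leaves undecided. No gene of this list was lower on leaving out cancer 1, 2, 3 or 5 or a single control, and with TPM the split was 5 higher and 0 lower. Foxc2 and Gsc were listed at 0 in all 8 libraries.

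Of 15 corepressors and regulators of protein stability tested, 1 was higher and 3 were lower, and the median log2 fold change was -0.03. Rcor1, the CoREST scaffold that carries the demethylase Kdm1a, had cancer FPKM of 3 to 8, against 20 to 26 in control tissue (-1.74 on the log2 scale; limma, adjusted p = 0.0043). Ctbp2, a corepressor bound by the ZEB proteins, was at 10 to 17 against 26 to 35 (-1.01 on the log2 scale; limma, adjusted p = 0.0081). Both stayed below 0 with TPM, without a call (adjusted p = 0.0756 and 0.741 from limma). Kdm1a was the higher one, at FPKM of 31, 21, 33, 20 and 31 in the cancers, against 15, 16 and 14 in control tissue (limma, adjusted p = 0.0208), and no gene of this list was higher when a single control was left out. With TPM, 10 of these 15 were higher and 0 lower.

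Of 21 ligands, receptors and signal proteins that induce the transition, 4 were higher and 3 lower, with a median log2 fold change of 0.13. Tgfb1, the ligand best known to induce it, had cancer FPKM of 20, 10, 27, 14 and 28, against 3, 2 and 3 in control tissue (2.42 on the log2 scale; limma, adjusted p = 0.00286). Lox, a matrix crosslinking enzyme, was at 3 to 11 against 1 in each control (1.79 on the log2 scale; limma, adjusted p = 0.012). Fgfr1 and Loxl2 were the others higher, and Egfr, Notch1 and Jag1 were lower. The receptors of TGF-beta showed no call, with log2 fold changes of 0.57 for Tgfbr1 and -0.27 for Tgfbr2 (adjusted p = 0.192 and 0.249 from limma). With TPM the split was 14 higher and 0 lower, and without control 2 or control 3 no gene was lower, with 4 or 3 higher.

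Epithelial genes that SNAIL and ZEB proteins are known to repress moved in both directions. Of 20 tested, 5 were higher and 8 lower, with a median log2 fold change of -1.30. Cdh1, Ocln, Crb3, Llgl2, Dsp, Pkp2, Pkp3 and Cgn, which build adherens and tight junctions, polarity complexes and desmosomes, were the lower ones. Cldn3, Cldn4, Cldn7, Epcam and Marveld3 were the higher ones. Cldn3, a tight junction claudin, had cancer FPKM of 47, 25, 31, 20 and 64, against 1 in each control (4.14 ± 0.36 on the log2 scale, SE; limma, adjusted p = 0.000779). Cldn7 was at 93, 101, 55, 58 and 143 against 6, 4 and 6 (3.77 ± 0.33 on the log2 scale, SE; limma, adjusted p = 0.000782). Epcam was at 314, 315, 394, 379 and 592 against 183, 159 and 173. With TPM the split was 6 higher and 2 lower, and the number lower was 4 without cancer 3 and 2, 4 and 3 without controls 1, 2 and 3.

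No factor that keeps the epithelial state was called higher. Of 10 tested, 0 were higher and 5 lower (0 and 8 at an unadjusted p under 0.05), with a median log2 fold change of -1.43. The 5 were the splicing regulators Esrp1 and Esrp2 and the transcription factors Grhl1, Ovol1 and Klf4. Klf4 had cancer FPKM of 15, 93, 28, 46 and 57, against 318, 209 and 252 in control tissue (-2.64 on the log2 scale; limma, adjusted p = 0.0097). Ovol1 was at 0, 3, 1, 4 and 3 against 10, 9 and 13 (-2.07 on the log2 scale; limma, adjusted p = 0.0208). Ovol1 lost its call when cancer 3 or any 1 control was left out (0.0518 to 0.0778). The number lower was 3 without cancer 3, 2 without each of the controls and 1 with TPM. Klf4, Ovol1 and Cdh1 were each lowest in cancer 1, which also had the lowest sums of gastric gland genes (694) and squamous genes (0). The part of normal epithelium in the lower values of these lists was not tested.

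Of 18 other mesenchymal effectors tested, 7 were higher and 1 lower, with a median log2 fold change of 0.93. Among those higher were Cdh11, Mmp14, Itga5, Msn and Cd44. Mmp9, at 1, 1, 0, 1 and 1 in the cancers and listed at 0 in all controls, was also called (limma, adjusted p = 0.0451), but its groups overlapped (exact permutation test, p = 0.143) and rounding leaves its sign undecided. Nt5e, the ecto-5'-nucleotidase CD73, was the lower one, at 1, 15, 4, 14 and 34 against 95, 56 and 50 (-2.76 on the log2 scale; limma, adjusted p = 0.0441), and lost its call on leaving out cancer 2, 3 or 4, or a single control (0.0553 to 0.141). Without controls 1, 2 and 3 the number higher was 3, 4 and 4, and with TPM 12 were higher and 0 lower.

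**Figure D5:**
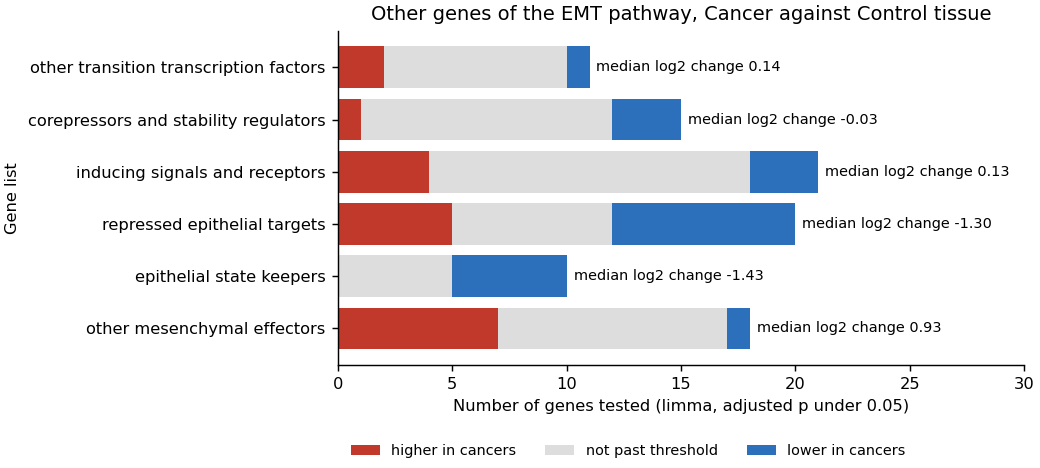
Number of genes tested in each of 6 lists of the pathway, split into those higher in the cancers, those not past the threshold and those lower (limma, adjusted p under 0.05), with the median log2 fold change beside each bar. Other mesenchymal effectors hold 7 higher and 1 lower, epithelial state keepers 0 and 5, and repressed epithelial targets 5 and 8.

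The scaling of the libraries bears on these directions. With TPM the median over all genes moved to 0.81 on the log2 scale. Relative to that shift, the log2 fold change was 2.25 for Fn1 and 1.81 for Vim. It stayed above 0 for all 9 of the genes tested. With quantile normalization Zeb2 turned to -0.03 and the other 8 stayed above 0.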

How the data were processed

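RNA of 5 SCJ cancers and 3 control SCJ was sequenced from poly(A)-selected directional libraries. The authors trimmed reads with cutadapt 1.8, aligned them with TopHat2 2.0.13, and made FPKM for UCSC mm10 genes with cuffquant and Cuffnorm 2.2.1, per the labels and methods. In the deposited table the FPKM are whole numbers after rounding by the authors, and this score was not taken for a read count. Depth is unknown, so counting intervals cannot be had, and values of 0 are called listed at 0.

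The genes that reached FPKM 1 in 3 or more libraries were fitted on log2(FPKM + 1) by limma 3.58.1 in R 4.3.3 (lmFit, eBayes with trend), with Benjamini-Hochberg adjustment over all 14357 genes and a threshold of 0.05. Fold changes are on that scale and understate changes of low genes. For single genes and within-library differences an exact permutation test (two-sided, 56 splits) was run (SciPy 1.17.1). TPM here is FPKM divided by the library's sum. The script was tested on simulated data.

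The 10 genes, the lists and the rule for named genes were chosen with earlier results of these data known. Named beside the 10 were Trp53, Rb1 and Cdh1, up to 2 genes of each pathway list with the largest change without overlap (1 such result is not reported here), and 3 genes nearest in pattern to each of 3 members. Other genes given were chosen after their values were seen. Of 206 list entries 205 were matched. Of 4 hepatocyte genes tested 0 were called by limma (1 higher and 0 lower at an unadjusted p under 0.05). Promoter windows came from RefSeq (GRCm38.p6).

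The alternatives were a replicate block, array weights, quantile normalization, TPM, pseudocounts of 0.1 and 0.01, no filter, a minimum mean FPKM of 5, eBayes with no trend, the median of the fibroblast list, and leaving out each library.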

Additional observations from a re-analysis of the deposited data

Results flagged for a closer look

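In a group of 5 cancers, a library was noted when its gap to the nearest other library, divided by the range of the group, passed Dixon's 95% critical value. Of 41 values examined 7 were noted, and chance gives about 1 in 20, here 2.05.

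Cancer 5 was far below the other cancers for Vim (ratio 0.8295), S100a4 (0.7802) and the mean level of the fibroblast genes (0.8261), and far above them for the mean level of the hepatocyte genes (0.8825). Cancer 1 was far above the others for the lymphocyte genes (0.7732), whose FPKM summed to 141 there. For Twist2 minus Twist1 (1.0, cancer 2) and Zeb2 minus Zeb1 (1.0, cancer 4) the other 4 cancers had equal values. Both pairs were at FPKM of 5 or less, rounded to whole numbers.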

How the results depend on the processing

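Fn1 and Cdh2 were called in every alternative tried. Over the 9 genes tested and all alternatives, 128 results kept direction and side of the threshold, 12 lost a call, 6 gained one and 2 turned in direction. The number of the 10 genes that were higher (5) was 3 with a mean FPKM of at least 5, where only 4 of them could be tested, 3 with quantile normalization, 8 with array weights, and 4 to 5 when a library was left out. The number past the unadjusted exact permutation test (4) was 7 with TPM. All genes called (4948) were 7704 with TPM (7176 higher, 528 lower), 8148 with array weights, and 2548 to 5232 when a library was left out, the lowest without control 1. The replicate numbers did not pair the libraries: deviations of same-numbered libraries correlated at -0.02, -0.19 and -0.10. With the replicate block 1580 genes were called, 1364 of them shared with the unblocked fit, and 4 of the 10 genes were higher, Snai1 losing its call (adjusted p = 0.0866 from limma), as did Cdh1 (0.0977). Under the block the repressed epithelial targets went from 5 higher and 8 lower to 2 and 0, inducing signals from 4 and 3 to 2 and 0, other mesenchymal effectors from 7 and 1 to 2 and 0, corepressors from 1 and 3 to 0 and 1, and epithelial state keepers from 0 and 5 to 0 and 2. Snai2 was called with TPM and array weights (adjusted p = 0.0131 and 0.00619 from limma), Zeb2 likewise (0.0278 and 0.0346), and Twist1 with array weights (0.0384). The cause was not tested. These log2 differences turned in sign, none of them with a call in the analysis reported: Zeb2 with quantile normalization (-0.0256), S100a4 (-0.0617 to 0.6124 with a library left out), and Trp53 (0.8562 with TPM, where the median of all genes was 0.81, 0.1284 with quantile normalization, -0.2869 to 0.0266 with a library left out). So did Snai2 minus Snai1 (-0.417 to 0.083). Relative to the fibroblast genes, turns came for Twist1 (1.0085 and 2.7006 with pseudocounts of 0.1 and 0.01, 0.1592 with the median of the list, -0.4178 to 0.013 with a library left out), Twist2 (0.3166 and 1.369 with those pseudocounts), Snai2 (-0.0035 with 0.01, -0.0652 with TPM, -0.299 with quantile normalization, -0.2716 to 0.3725 with a library left out), Snai1 (-0.157 with quantile normalization, -0.042 to 0.4497) and Zeb1 (-0.0006 with quantile normalization). FPKM rounded to whole numbers limits the genes at FPKM of 5 or less, among them the 6 transcription factors.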
